A study of Mus musculus with 8 samples.

Results

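The genes described here are the chromosomal neighbours of Nsun5 in the mouse. They were chosen by position: every protein-coding gene of the deposited count table that starts between positions 134000000 and 136500000 of chromosome 5, measured or not, apart from Nsun5 itself and the gene whose name begins with Eif. This window held 56 protein-coding genes, and 54 members remained of 54532 genes in the table. The rule uses no measured value, but the members were chosen with earlier results of these data known. Coordinates are those of the table, and mm10 is the mouse build named in the submitters' processing notes.

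The study profiled ribosomes in male mice labelled Nsun5-KO or WT, at 3 months of age, with whole brain as the tissue. In ribosome profiling, the pieces of mRNA covered by ribosomes, called footprints, survive a nuclease digest and are sequenced. The data comprise 4 KO-labelled and 4 WT-labelled footprint libraries, each with an mRNA library of the same name, 16 libraries in all. The protocol speaks of 5 mice of each genotype from 1 litter and ties no library to an animal, so the p-values below measure the spread between these libraries. The kind of allele, the strain and whether tissue was pooled are not given in the sources used here.

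Nsun5 encodes an enzyme that methylates a cytosine of the large ribosomal RNA. In the human genome its counterpart lies in the interval that is lost from 1 chromosome in Williams-Beuren syndrome, a developmental disorder with features of the heart, vessels, connective tissue and behaviour. The mouse chromosome keeps most of these genes together, with a synaptic membrane protein, several transcription factors, chromatin subunits, cytoskeletal regulators and elastin side by side. When a gene in such a cluster is targeted, its neighbours share the chromosome that carries the altered allele.

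Nsun5 was counted first, since it bears on the labels (chr5:135369953-135376805, plus strand). It had 102, 124, 83 and 110 mRNA counts in KO-labelled libraries 1 to 4, against 91, 82, 103 and 109 in WT-labelled libraries 1 to 4. Its log2 fold change was 0.12 ± 0.15 (SE, edgeR's quasi-likelihood test, adjusted p = 0.820), so the gene's counts were not lower under the KO label. Footprint counts were 3, 0, 1 and 2 in KO-labelled libraries 1 to 4 and 2, 11, 0 and 6 in WT-labelled libraries 1 to 4, too few to pass the filter on low counts. A count over the whole gene does not show whether part of it is missing. The groups are therefore called KO-labelled and WT-labelled throughout, and every direction given below rests on those labels.

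The mRNA libraries held 15.6 to 17.8 M counts (M, mega), and the members took a small and even share of them. Their share of the protein-coding mRNA counts was 0.338% ± 0.00931 in KO-labelled and 0.326% ± 0.0113 in WT-labelled libraries (SD, n = 4 each). KO-labelled footprint libraries were shallower, with 0.586 to 1.30 M counts, against 1.20 to 3.49 M in WT-labelled libraries. Only 29.9% to 65.3% of these counts in KO-labelled and 34.7% to 65.9% in WT-labelled libraries fell in protein-coding genes. In mRNA that part was 97.4% to 97.8%, so the usable footprint depth was lower than the totals and uneven. The members' share of the protein-coding footprint counts was 0.372% ± 0.0148 in KO-labelled and 0.398% ± 0.0243 in WT-labelled libraries. WT-labelled mRNA libraries 1 and 2 stood apart from the other 6 on the first principal component, which held 31.3% of the variance. Their scores were 25.7 and 24.0, against −14.2 to −4.47 in the other 6. Every marker of the hypothalamus listed had a lower fitted mRNA level under the KO label, and their summed mRNA level was 0.512 to 8.45 CPM in KO-labelled and 1.54 to 112 CPM in WT-labelled libraries. In footprints the same 5 markers summed to 55.9 to 112 CPM in KO-labelled and 4.65 to 64.0 CPM in WT-labelled libraries, the opposite order to mRNA, with overlap. Footprint and mRNA libraries of the same label therefore differed in these markers. Libraries of the same name differed as well in the summed level of 6 choroid plexus and ependyma markers. In KO-labelled library 4 it was 58.7 CPM in mRNA and 970 CPM in footprints, and in KO-labelled library 1 it was 1181 and 862 CPM. Neuronal, astrocyte and myelin markers were abundant in every library, and markers of liver and testis summed to at most 29.5 CPM, in KO-labelled library 1. CPM are counts scaled by the size of the library.

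Most of the members were tested in mRNA, fewer passed the filter in footprints, and a minority were silent. Of the 54 members, 37 had a mean of at least 1 RPKM in mRNA and were tested there, 20 passed the count filter in footprints, and 29 were tested for translational efficiency, the change of footprints relative to mRNA. All 3 tests covered 20 members, and 17 members entered none. Levels are compared between genes only per length, as CPM per kb of gene length averaged over the libraries of a kind.

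Ywhag, the gamma member of the 14-3-3 family of phosphoprotein-binding adaptors, had the highest level, with 225 CPM per kb in mRNA and 129 in footprints. It alone held 37.8% of the members' mRNA counts and 41.7% of their footprint counts. Stx1a, a presynaptic membrane protein of the vesicle fusion machinery, followed with 79.0 CPM per kb in mRNA, and Mdh2, the mitochondrial malate dehydrogenase of the citric acid cycle, with 73.2. These levels of Stx1a and Mdh2 overlapped between libraries, so their order is not set. Clip2, a microtubule-binding protein, had 30.3 CPM per kb, Gtf2i, which encodes the transcription factor TFII-I, 22.6, and Castor2, a relative of an arginine sensor of the mTORC1 pathway, 20.6.

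At the other end, 6 members had no mRNA count in any of the 8 libraries. They were Tmem270, Cldn13, Fkbp6, Trim50, Ccl26 and Upk3b, among them a claudin, a meiotic protein, a chemokine and a uroplakin. A count of 0 in the 134 M mRNA counts allows a level of up to 0.0224 CPM, which covers counting error only. A further 5 members had between 2 and 30 mRNA counts over all libraries: the claudin Cldn4 with 2, the egg coat protein Zp3 with 7, Upk3bl with 10, the pseudophosphatase Styxl1 with 13 and the chemokine Ccl24 with 30. Both of the germ cell genes just named, Fkbp6 and Zp3, were thus at or near 0 in this tissue. The remaining 6 untested members, described below, had 69 to 736 mRNA counts.

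**Figure D1:**
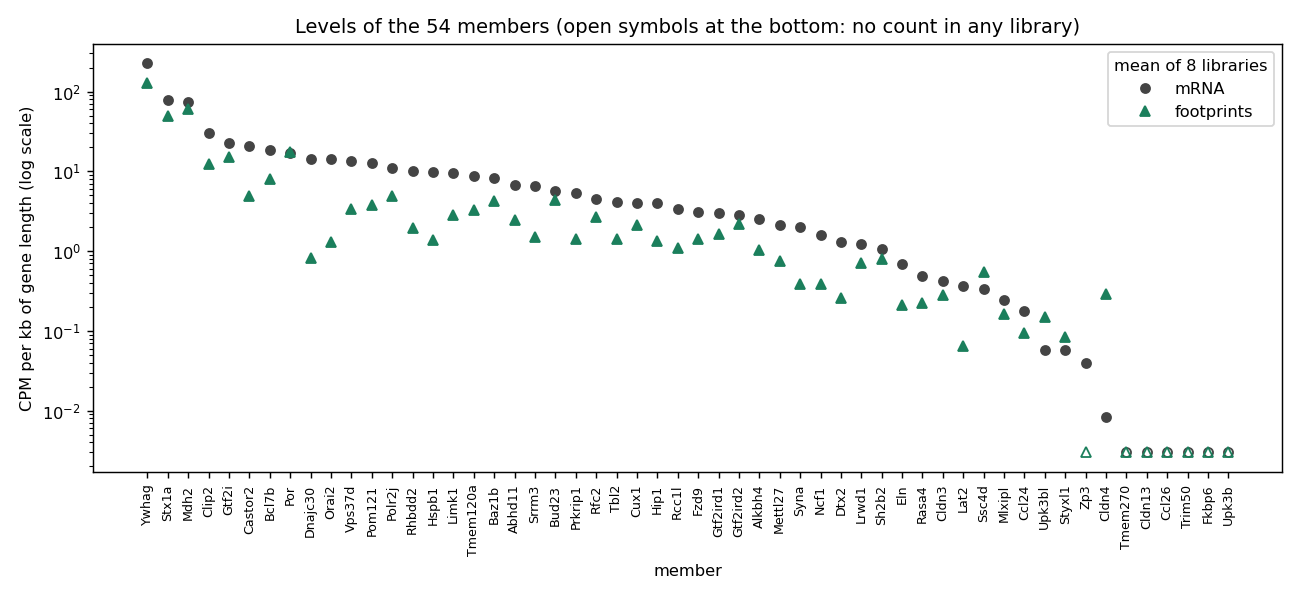
Mean level of each of the 54 members over 8 libraries, as CPM per kb of gene length on a log scale, in mRNA (circles) and footprints (triangles). Ywhag is highest in both kinds, and 6 members at the right have no count in either.

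Promoter windows of the members tested in mRNA held a higher median number of CG dinucleotides than those of the untested ones. RefSeq's table of promoter windows (build GRCm38.p6, 250 bases before to 50 bases after a start site) held a window for 46 of the 54 members. The dinucleotide CG, which reads the same on both strands, was counted in each. The 35 members tested in mRNA that had a window held a median of 25 CG (3 to 53), and the 11 untested ones a median of 9 (2 to 27). Over the 21262 windows of protein-coding genes the median was 13. That value was reached by 29 of the 35 tested members and by 4 of the 11 untested ones. Tested and untested genes outside the window were not compared in this way, so the contrast cannot be called particular to these neighbours. Across the 46 members, CG number and mRNA level per kb correlated at a Spearman rho of 0.43, given as a description, since the genes share the same libraries. The letters TATAAA, searched on both strands, were found in 1 member's window, that of Dtx2, and in 12.6% of the windows of protein-coding genes. Some windows lie far from the gene start of the count table, by 19112 bases for Por and 11216 for Srrm3.

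A set of 5 windows is shown to let the contrast between highly expressed and silent neighbours be read from the letters, with every CG in capitals. Ywhag (chr5:135934592-135934891, minus strand) has the highest level, with 23 CG. Stx1a (chr5:135023232-135023531, plus strand) has 19 CG and the lowest p-value of the members in translational efficiency. Mdh2 (chr5:135778399-135778698, plus strand) has 27 CG and shares most of its window with Styxl1. Fkbp6 (chr5:135349995-135350294, minus strand), silent here, has 21 CG. Upk3b (chr5:136038246-136038545, plus strand), also silent, has 2 CG, the fewest among the members.
Ywhag: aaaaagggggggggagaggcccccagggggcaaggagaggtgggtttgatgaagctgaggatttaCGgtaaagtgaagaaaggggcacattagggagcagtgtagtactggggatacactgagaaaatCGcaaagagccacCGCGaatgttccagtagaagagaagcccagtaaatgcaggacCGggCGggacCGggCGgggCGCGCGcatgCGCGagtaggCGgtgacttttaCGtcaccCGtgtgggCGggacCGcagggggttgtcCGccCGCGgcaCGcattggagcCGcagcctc
Stx1a: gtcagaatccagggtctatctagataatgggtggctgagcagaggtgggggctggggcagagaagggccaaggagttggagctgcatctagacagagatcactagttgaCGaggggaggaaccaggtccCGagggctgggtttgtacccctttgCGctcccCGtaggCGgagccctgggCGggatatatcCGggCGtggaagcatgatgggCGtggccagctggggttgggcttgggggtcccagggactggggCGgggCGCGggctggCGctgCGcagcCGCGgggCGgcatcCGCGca
Mdh2: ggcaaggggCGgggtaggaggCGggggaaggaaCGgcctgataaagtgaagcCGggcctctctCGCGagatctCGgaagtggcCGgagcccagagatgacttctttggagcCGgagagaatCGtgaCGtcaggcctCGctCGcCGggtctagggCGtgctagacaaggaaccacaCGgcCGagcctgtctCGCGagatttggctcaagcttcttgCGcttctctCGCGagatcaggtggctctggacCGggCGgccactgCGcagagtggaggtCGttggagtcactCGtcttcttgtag
Fkbp6: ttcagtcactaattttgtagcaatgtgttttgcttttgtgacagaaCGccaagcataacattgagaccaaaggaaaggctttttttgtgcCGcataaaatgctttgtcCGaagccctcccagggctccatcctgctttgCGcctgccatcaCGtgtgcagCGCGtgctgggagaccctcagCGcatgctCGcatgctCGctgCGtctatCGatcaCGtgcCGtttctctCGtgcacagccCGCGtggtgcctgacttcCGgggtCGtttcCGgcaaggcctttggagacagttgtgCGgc
Upk3b: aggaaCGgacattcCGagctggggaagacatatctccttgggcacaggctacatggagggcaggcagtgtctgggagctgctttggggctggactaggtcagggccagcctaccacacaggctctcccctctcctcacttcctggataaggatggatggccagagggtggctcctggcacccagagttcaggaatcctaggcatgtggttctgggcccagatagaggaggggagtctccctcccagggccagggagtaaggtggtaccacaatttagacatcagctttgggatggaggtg

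The Ywhag, Stx1a and Mdh2 windows are dense in CG, towards the right-hand end, where the start site lies, in Ywhag and Stx1a and across the whole window in Mdh2. A high CG number did not always go with a high level. Fkbp6 had no mRNA count with as many CG as Clip2 and Abhd11. Mdh2 and Styxl1 are transcribed away from each other, and their gene starts in the count table are 95 bases apart. The RefSeq start site of the Mdh2 window lies 169 bases from that gene start. The windows of the pair share 237 bases, identical once 1 of them is reverse-complemented. Mdh2 nevertheless had 34567 mRNA counts over the 8 libraries and Styxl1 13. Alkbh4 and Lrwd1 are the other pair of members with head-to-head windows in the RefSeq table. Their gene starts in the count table are 72 bases apart and their windows share 170 bases, and there the counts were 701 and 1123.

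**Figure D2:**
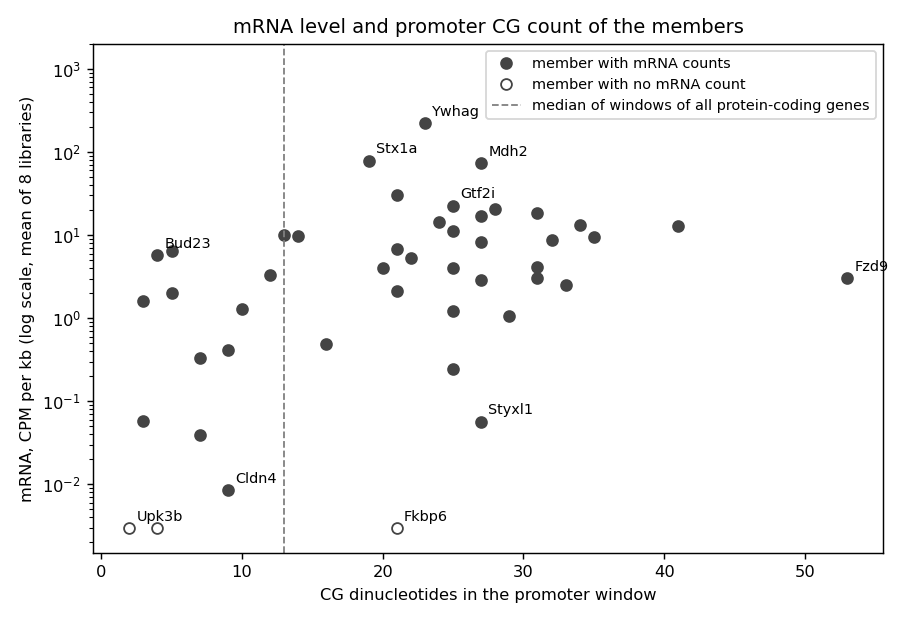
mRNA level (CPM per kb, log scale, mean of 8 libraries) against the number of CG dinucleotides in the promoter window of each of the 46 members that had a window. Open circles at the bottom are members with no mRNA count, and the dashed line marks the median of 13 CG over windows of protein-coding genes.

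The main comparison asked whether the neighbours of the targeted gene differed between the genotype labels in mRNA. None of the 37 tested members passed an adjusted p of 0.05 in edgeR's quasi-likelihood test, against 0% of all 13058 genes tested. At an unadjusted p under 0.05 there were 3 members, all higher in KO-labelled libraries, or 8.11% of those tested, beside 10.5% of all genes. DESeq2 also called no member in mRNA and called 87 genes in all, or 0.666%. The members' median log2 fold change was 0.02, beside −0.01 over all genes. Of the 37, 21 had a positive and 16 a negative log2 fold change, from −0.25 to 0.47. None of the 37 exceeded a 1.5-fold change in mRNA, against 2.75% of all genes tested. Members with a mean under 1 RPKM are outside this count, and Mlxipl and Lat2 among them, described below, had larger fitted changes. The median standard error of the members was 0.10 on the log2 scale.

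**Figure D3:**
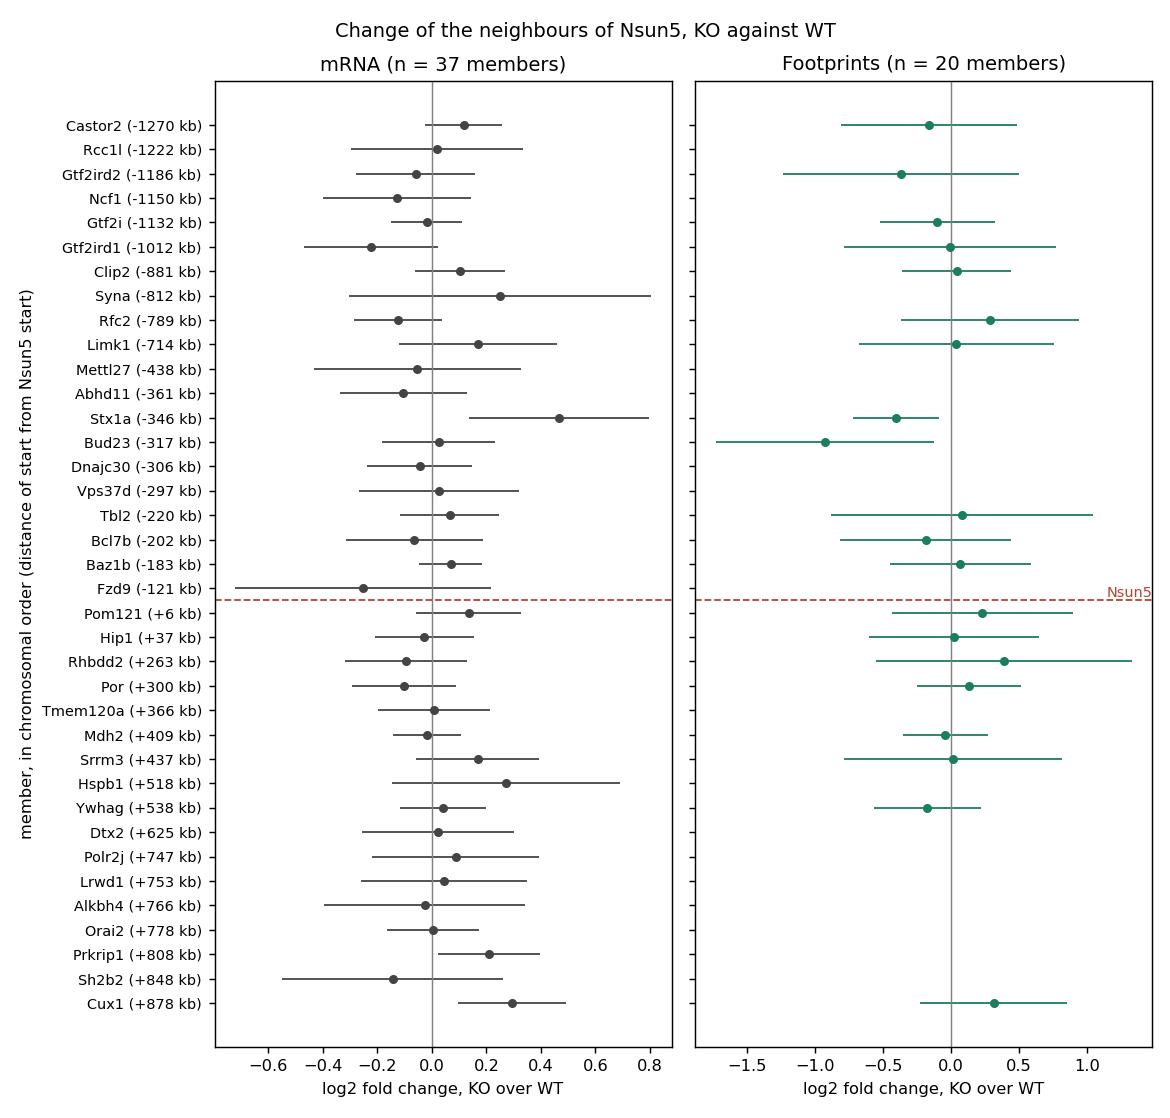
Log2 fold change of mRNA (left, 37 members) and footprints (right, 20 members), KO-labelled over WT-labelled, with 95% intervals, in chromosomal order from top to bottom. The dashed line marks the place of Nsun5. Most intervals cross 0, and the members next to the line lie within the range of the others.

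The fold changes showed no clear order along the chromosome. The Spearman rho between the mRNA log2 fold change and the distance from Nsun5 was 0.05 over the 37 members, a description of genes that share the same libraries. Distance here and in the 500 kb split runs between the lower coordinates of the genes, whatever their strand. For members on the minus strand it is therefore not measured from the transcription start. The 17 tested members within 500 kb had a median log2 fold change of −0.02, and 8 of them were positive. The 20 tested members beyond that distance had a median of 0.03, and 13 were positive. The next 2.5 Mb on the high-coordinate side hold 72 protein-coding genes, of which 42 were tested, with 14 positive and 28 negative log2 fold changes, a median of −0.04 and no call.

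The measured genes on either side of Nsun5 were examined in each library. Pom121 (chr5:135376141-135394546, minus strand), a membrane protein of the nuclear pore, overlaps the end of Nsun5 on the opposite strand by 665 bases. Its mRNA level was 74.9, 65.0, 85.3 and 75.6 CPM in KO-labelled libraries 1 to 4, against 72.6, 68.6, 63.4 and 69.3 CPM in WT-labelled libraries 1 to 4. The groups overlapped, with KO-labelled library 3 above every other library and library 2 among the lowest, and the log2 fold change was 0.13 ± 0.09 (SE, edgeR adjusted p = 0.615). Whether the counting used strand is not given in the sources used here, so reads from the shared end could be placed in either gene.

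Hip1 (chr5:135406531-135545120, minus strand), a clathrin adaptor, is the next tested gene beyond Pom121. It had 47.1, 50.0, 51.6 and 55.4 CPM of mRNA in KO-labelled libraries 1 to 4, against 46.2, 56.7, 52.2 and 53.1 CPM in WT-labelled libraries 1 to 4. These values overlapped fully, and its log2 fold change of −0.03 ± 0.08 (SE; adjusted p = 0.933 by edgeR) changed sign when WT-labelled library 2 or KO-labelled library 1 was left out.

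On the other side, Trim50 and Fkbp6 had no counts, and the nearest tested gene was Fzd9 (chr5:135248938-135251230, minus strand), a receptor for Wnt ligands. Its mRNA level was 4.67, 8.42, 6.85 and 5.69 CPM in KO-labelled libraries 1 to 4, against 8.43, 9.0, 5.39 and 7.72 CPM in WT-labelled libraries 1 to 4. KO-labelled library 1 and WT-labelled library 3 were the lowest of their groups, the groups overlapped, and the log2 fold change was −0.25 ± 0.21 (SE, edgeR adjusted p = 0.716). Baz1b (chr5:135187264-135246129, plus strand), a chromatin-remodelling subunit also known as WSTF, varied little between libraries. It had 116, 116, 119 and 116 CPM of mRNA in KO-labelled libraries 1 to 4, against 109, 113, 112 and 111 CPM in WT-labelled libraries 1 to 4. Every KO-labelled value lay above every WT-labelled one, but the step was small, with a log2 fold change of 0.07 ± 0.05 (SE, 95% interval −0.05 to 0.18, edgeR adjusted p = 0.679).

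Among the transcription and chromatin genes, 9 of 10 were tested in mRNA, with none called, 5 positive and 4 negative log2 fold changes and a median of 0.02. Cux1 (chr5:136248135-136567490, minus strand), a homeobox transcription factor of upper-layer cortical neurons, has its lower coordinate inside the window and runs past its end. It had 84.1, 102, 86.7 and 83.4 CPM of mRNA in KO-labelled libraries 1 to 4, against 72.3, 68.3, 82.3 and 67.7 CPM in WT-labelled libraries 1 to 4. No KO-labelled value fell below any WT-labelled one, although KO-labelled library 4 and WT-labelled library 3 were close. The log2 fold change was 0.30 ± 0.09 (SE, 95% interval 0.10 to 0.49), with the lowest p-value of the members in mRNA (unadjusted p = 0.00750, edgeR adjusted p = 0.348). Cux1 thus had a higher mean under the KO label without passing the test over all genes.

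The summed mRNA level of 4 cerebral cortex markers was 292 to 421 CPM in KO-labelled and 213 to 295 CPM in WT-labelled libraries, and all 4 had a positive log2 fold change, with none called. In footprints they summed to 109 to 134 CPM in KO-labelled and 129 to 159 CPM in WT-labelled libraries, the opposite order with overlap. There 3 of the 4 had a negative log2 fold change, again with none called. In whole-tissue RNA, a change in the number of cells of a type and a change in RNA per cell cannot be told apart. The part of the cortical share in the Cux1 values was not tested.

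The members of the TFII-I family lie at the far low-coordinate end, and none of them was called. Gtf2i averaged 229 ± 11.3 CPM in KO-labelled and 233 ± 2.93 CPM in WT-labelled libraries (SD, n = 4 each), with a log2 fold change of −0.02. Gtf2ird1, a related factor, had 21.9, 20.3, 18.6 and 24.2 CPM of mRNA in KO-labelled libraries 1 to 4, against 22.9, 29.1, 24.6 and 22.6 CPM in WT-labelled libraries 1 to 4. KO-labelled library 4 reached into the WT-labelled range, and the log2 fold change was −0.22 ± 0.11 (SE, edgeR adjusted p = 0.510). Gtf2ird2, the third of the family, ranged over 17.1 to 17.8 CPM in KO-labelled and 15.9 to 20.2 CPM in WT-labelled libraries and shares 4303 bases with Ncf1 on the opposite strand.

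Bcl7b, a subunit of BAF chromatin-remodelling complexes, ranged over 35.7 to 48.6 CPM in KO-labelled and 38.3 to 50.9 CPM in WT-labelled libraries. Tbl2, a WD-repeat protein of the endoplasmic reticulum, ranged over 29.6 to 34.8 CPM in KO-labelled and 28.4 to 32.8 CPM in WT-labelled libraries, and Polr2j, a subunit of RNA polymerase II, over 11.3 to 13.4 CPM in KO-labelled and 9.97 to 14.6 CPM in WT-labelled libraries. The ubiquitin ligase gene Dtx2, of the deltex family of Notch regulators, ranged over 8.71 to 9.65 CPM in KO-labelled and 7.38 to 9.99 CPM in WT-labelled libraries. In all 4 the groups overlapped, and the log2 fold changes lay between −0.06 and 0.09.

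Genes of RNA handling, replication and the nuclear envelope gave 8 tested members in mRNA, with none called and a median log2 fold change of 0.03. Prkrip1 (chr5:136178127-136198963, minus strand), a spliceosome-associated protein, had 22.6, 24.4, 21.8 and 22.5 CPM of mRNA in KO-labelled libraries 1 to 4, against 19.1, 18.6, 21.9 and 19.4 CPM in WT-labelled libraries 1 to 4. Only WT-labelled library 3 reached the KO-labelled range, at the level of its lowest library, and the log2 fold change was 0.21 ± 0.08 (SE, unadjusted p = 0.0324, edgeR adjusted p = 0.444).

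Rfc2, a subunit of the clamp loader of DNA replication, was the only tested member whose mRNA values in KO-labelled libraries lay wholly below those in WT-labelled ones. It had 27.6, 27.7, 27.6 and 24.4 CPM in KO-labelled libraries 1 to 4, against 29.8, 29.3, 28.1 and 29.7 CPM in WT-labelled libraries 1 to 4. The gap between the groups was narrow, and the log2 fold change was −0.12 ± 0.07 (SE, edgeR adjusted p = 0.578). Rfc2 overlaps Lat2 on the opposite strand by 1784 bases. Together with Cux1 and Baz1b it made 3 of 37 members without overlap between the groups, 2 with the KO-labelled values above and 1 with them below. Over all 13058 genes, 2.85% lay wholly above and 2.74% wholly below.

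Srrm3, a splicing regulator of neuronal microexons, averaged 44.0 ± 2.60 CPM in KO-labelled and 39.1 ± 5.53 CPM in WT-labelled libraries (SD, n = 4 each), with overlapping groups and a log2 fold change of 0.17. Bud23, the methyltransferase that modifies a guanine of the small ribosomal RNA, averaged 19.5 ± 1.18 CPM in KO-labelled and 19.1 ± 1.71 CPM in WT-labelled libraries, a log2 fold change of 0.02. The remaining tested genes of this list were lower in level. Mettl27, a methyltransferase-like protein, ranged over 6.05 to 8.78 CPM in KO-labelled and 5.88 to 8.73 CPM in WT-labelled libraries, Lrwd1, which associates with the origin recognition complex, over 7.04 to 9.90 CPM in KO-labelled and 7.60 to 9.38 CPM in WT-labelled libraries, and the dioxygenase Alkbh4 over 4.55 to 6.31 CPM in KO-labelled and 4.47 to 6.01 CPM in WT-labelled libraries.

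The synapse, signalling and cytoskeleton genes held the mRNA log2 fold change farthest from 0 among the 37 tested members, that of Stx1a. Of 12 listed, 11 were tested, with none called, 7 positive and 4 negative log2 fold changes and a median of 0.03. Stx1a (chr5:135023482-135051100, plus strand) had 271, 259, 242 and 206 CPM of mRNA in KO-labelled libraries 1 to 4, against 152, 135, 210.0 and 212 CPM in WT-labelled libraries 1 to 4. WT-labelled libraries 1 and 2 were clearly lowest, while WT-labelled libraries 3 and 4 lay just above KO-labelled library 4. The log2 fold change was 0.47 ± 0.15 (SE, 95% interval 0.14 to 0.80, unadjusted p = 0.0101, edgeR adjusted p = 0.367). Without WT-labelled libraries 1 and 2, the pair that stood apart on the first principal component, it was 0.21 (edgeR adjusted p = 0.668).

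The summed mRNA level of 5 neuronal markers was 5946 to 6477 CPM in KO-labelled and 5284 to 5486 CPM in WT-labelled libraries, and 4 of the 5 had a positive log2 fold change. That of 8 myelin markers was 4585 to 6320 CPM in KO-labelled and 7079 to 7758 CPM in WT-labelled libraries, with all 8 negative. Neither list had a called gene, and their part in the Stx1a values was not tested. A list of 32 partner genes elsewhere in the genome, including further members of the vesicle fusion machinery, 14-3-3 proteins and cofilin regulators, was tested in full. None of the 32 was called in mRNA, 4 had an unadjusted p under 0.05, all higher under the KO label, beside 10.5% of all genes at that p in either direction, and the median log2 fold change was 0.05.

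**Figure D4:**
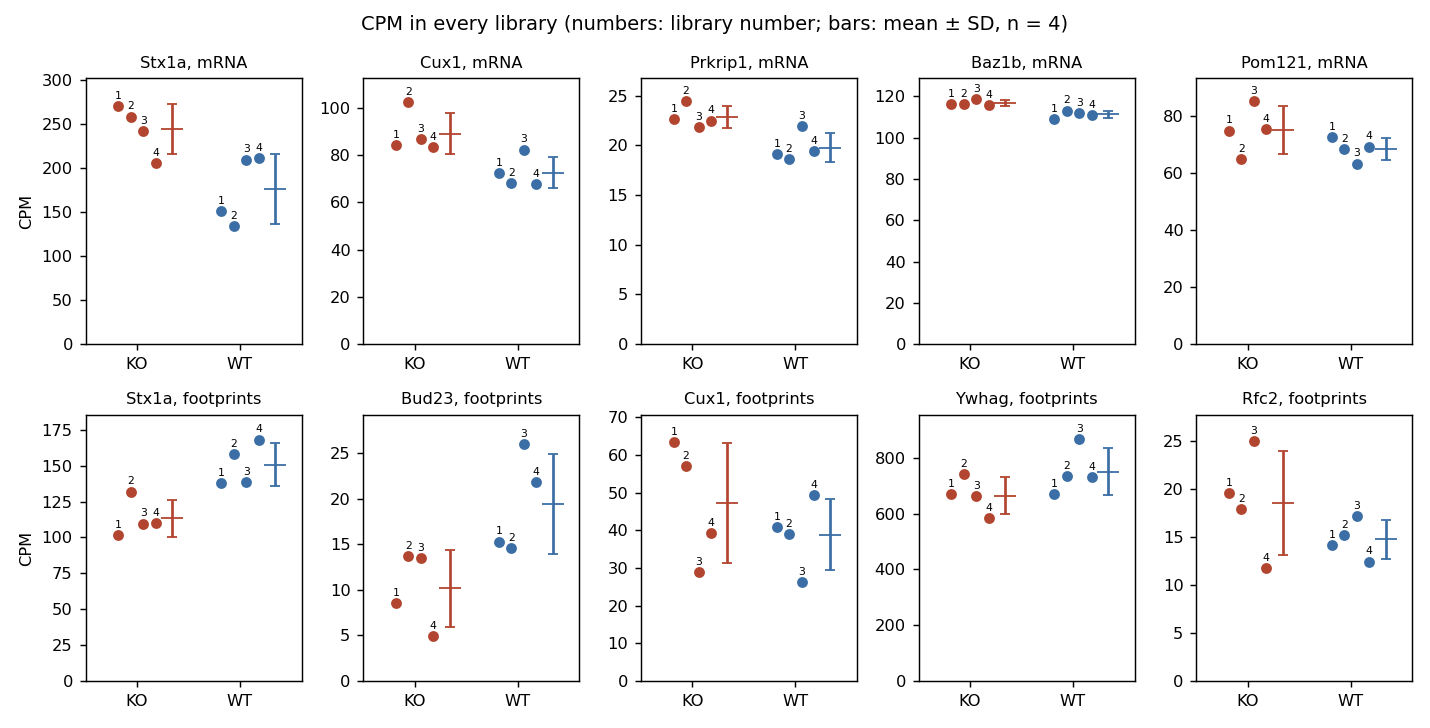
CPM in every library for 5 members in mRNA (top) and 5 members in footprints (bottom), with KO-labelled libraries left of WT-labelled ones and the mean ± SD beside the points (n = 4). Stx1a mRNA is lowest in WT-labelled libraries 1 and 2, and Stx1a and Bud23 footprints lie lower in every KO-labelled library.

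Ywhag mRNA was 1252, 1234, 1353 and 1183 CPM in KO-labelled libraries 1 to 4, against 1345, 1175, 1133 and 1225 CPM in WT-labelled libraries 1 to 4. The 2 groups covered nearly the same range, and the log2 fold change was 0.04 ± 0.07 (SE, 95% interval −0.12 to 0.20, edgeR adjusted p = 0.875). Castor2 had 158, 165, 174 and 152 CPM in KO-labelled libraries 1 to 4, against 145, 144, 157 and 152 CPM in WT-labelled libraries 1 to 4, overlapping values with a log2 fold change of 0.12 ± 0.06 (SE; adjusted p = 0.547 by edgeR). Limk1, the kinase that phosphorylates cofilin and so slows the turnover of actin filaments, averaged 71.7 ± 8.97 CPM in KO-labelled and 63.7 ± 10.9 CPM in WT-labelled libraries (SD, n = 4 each). Its groups overlapped, and the log2 fold change was 0.17 ± 0.13 (SE, edgeR adjusted p = 0.691).

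Clip2 ranged over 155 to 168 CPM in KO-labelled and 138 to 167 CPM in WT-labelled libraries. Orai2, a calcium channel subunit, ranged over 82.0 to 89.8 CPM in KO-labelled and 79.8 to 98.5 CPM in WT-labelled libraries, and Rhbdd2, a member of the rhomboid family, over 65.7 to 77.1 CPM in KO-labelled and 63.2 to 87.8 CPM in WT-labelled libraries. Vps37d, an ESCRT-I subunit, ranged over 20.2 to 21.7 CPM in KO-labelled and 16.2 to 25.9 CPM in WT-labelled libraries, and Sh2b2, an adaptor of insulin signalling, over 4.73 to 6.60 CPM in KO-labelled and 5.03 to 7.60 CPM in WT-labelled libraries. All of these overlapped between labels and had adjusted p-values of 0.665 or more.

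Mitochondrial and metabolic genes were also without a call. Of 7 listed, 6 were tested in mRNA, with none called and a median log2 fold change of −0.03. Mdh2 had 264, 260.3, 249.9 and 262 CPM in KO-labelled libraries 1 to 4, against 261, 261, 253 and 273 CPM in WT-labelled libraries 1 to 4. The groups coincided, and the 95% interval of the log2 fold change ran from −0.14 to 0.11. Por, the reductase that passes electrons to cytochrome P450 enzymes, averaged 66.4 ± 3.59 CPM in KO-labelled and 71.3 ± 7.85 CPM in WT-labelled libraries (SD, n = 4 each), with a log2 fold change of −0.10.

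Dnajc30, a mitochondrial J-domain protein, averaged 23.7 ± 2.23 CPM in KO-labelled and 24.4 ± 0.958 CPM in WT-labelled libraries and shares 758 bases with Bud23 on the opposite strand. Abhd11, a mitochondrial hydrolase, averaged 14.1 ± 1.47 CPM in KO-labelled and 15.2 ± 0.879 CPM in WT-labelled libraries, and Rcc1l, a mitochondrial protein of the RCC1 family, 9.58 ± 0.342 CPM in KO-labelled and 9.45 ± 1.71 CPM in WT-labelled libraries. Hspb1, the small heat shock protein HSP27, averaged 11 ± 2.70 CPM in KO-labelled and 9.10 ± 1.63 CPM in WT-labelled libraries, with a log2 fold change of 0.27 ± 0.19 (SE; adjusted p = 0.654 by edgeR).

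Of the genes of matrix, junctions and blood cells, 2 of 8 were tested, and neither was called. Ncf1, a subunit of the phagocyte oxidase, ranged over 5.29 to 5.99 CPM in KO-labelled and 5.95 to 6.61 CPM in WT-labelled libraries, and Tmem120a, a membrane protein, over 14.4 to 16.9 CPM in KO-labelled and 14.2 to 16 CPM in WT-labelled libraries. Syna, the fusion protein syncytin-A of the placenta, stood in none of the role lists and ranged over 3.13 to 5.87 CPM in KO-labelled and 2.72 to 4.84 CPM in WT-labelled libraries.

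The 6 members measured in mRNA below 1 RPKM were Eln, Mlxipl, Rasa4, Ssc4d, Lat2 and Cldn3. They were fitted together with all genes that pass a filter on counts in place of RPKM, where none of 16062 genes was called by edgeR and 10.7% had an unadjusted p under 0.05. Mlxipl, the glucose-responsive transcription factor ChREBP, had 15, 13, 18 and 19 counts in KO-labelled libraries 1 to 4, against 35, 22, 33 and 23 counts in WT-labelled libraries 1 to 4. Every KO-labelled count was below every WT-labelled one, and the log2 fold change was −0.78 ± 0.27 (SE, edgeR unadjusted p = 0.0153, adjusted p = 0.398). The share of the 16062 genes without overlap between the groups was not computed.

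Eln, which encodes elastin of vessel walls, had 76, 75, 68 and 89 counts in KO-labelled libraries 1 to 4, against 135, 63, 133 and 97 counts in WT-labelled libraries 1 to 4. WT-labelled libraries 1 and 3 were highest, the groups overlapped, and the log2 fold change was −0.46 ± 0.22 (SE, edgeR adjusted p = 0.475). Lat2, an adaptor of immune cells, gave −0.68 ± 0.33 (adjusted p = 0.498), the scavenger receptor Ssc4d −0.34 ± 0.35, the claudin Cldn3 −0.37 ± 0.53 and the Ras GTPase-activating protein Rasa4 0.02 ± 0.28.

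Of the 23 members that are counterparts of the human deleted interval, 15 were tested in mRNA. None was called, 7 had a positive and 8 a negative log2 fold change, and the median was −0.02. Their summed level was 1002 to 1073 CPM in KO-labelled libraries and 897 to 1032 CPM in WT-labelled libraries, with KO-labelled library 4 inside the WT-labelled range. Stx1a is 1 of the 23, with 206 to 271 CPM in KO-labelled and 135 to 212 CPM in WT-labelled libraries. Its values are low in WT-labelled libraries 1 and 2, so the sum does not describe the 23 genes evenly.

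Footprints of the members were also without a call. None of the 20 tested members passed in edgeR's quasi-likelihood test, against 0% of all 8476 genes. At an unadjusted p under 0.05 there were 2 members, both lower in KO-labelled libraries, or 10% of those tested, beside 5.52% of all genes. DESeq2 called no member in footprints and 4 genes in all, or 0.0472%. The members' median log2 fold change was 0.02, beside 0.00 over all genes, and the range was −0.93 to 0.39. The members' median standard error was 0.30, against 0.10 in mRNA.

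Stx1a footprints had a fold change of the opposite sign to that of its mRNA. They were 101, 132, 109.6 and 109.9 CPM in KO-labelled libraries 1 to 4, against 138, 158, 138 and 168 CPM in WT-labelled libraries 1 to 4. All KO-labelled values lay below all WT-labelled ones. The log2 fold change was −0.41 ± 0.15 (SE, 95% interval −0.72 to −0.09, unadjusted p = 0.0166, edgeR adjusted p = 0.875).

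Bud23 footprints were 8.55, 13.7, 13.5 and 4.91 CPM in KO-labelled libraries 1 to 4, against 15.3, 14.6, 26.0 and 21.9 CPM in WT-labelled libraries 1 to 4, again with no overlap. The log2 fold change was −0.93 ± 0.37 (SE, 95% interval −1.73 to −0.12, unadjusted p = 0.0267, edgeR adjusted p = 0.881). These values rest on 7, 26, 7 and 5 counts in KO-labelled libraries 1 to 4 and 27, 47, 71 and 58 counts in WT-labelled libraries 1 to 4. A small Cajal body RNA gene, Gm25492, lies within Bud23 on the same strand and held 2303 footprint counts, against 248 in Bud23. The small RNA had 426, 112, 461 and 156 CPM in KO-labelled libraries 1 to 4, against 105, 140.5, 169 and 91.2 CPM in WT-labelled libraries 1 to 4. Its 2 highest values were both KO-labelled, the groups overlapped, and its part in the Bud23 values was not tested. Stx1a and Bud23 were the 2 of 20 tested members without overlap in footprints, and 2.04% of all genes tested lay wholly below under the KO label.

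The next members by p-value were Cux1, Rfc2 and Ywhag, with unadjusted p-values of 0.236, 0.359 and 0.360. Cux1 footprints were 63.5, 57.0, 28.8 and 39.3 CPM in KO-labelled libraries 1 to 4, against 40.8, 39.1, 26.4 and 49.4 CPM in WT-labelled libraries 1 to 4. KO-labelled libraries 1 and 2 were highest and the groups overlapped, with a log2 fold change of 0.31 ± 0.25 (SE; adjusted p = 0.912 by edgeR). Rfc2 footprints were 19.5, 17.9, 25 and 11.8 CPM in KO-labelled libraries 1 to 4, against 14.2, 15.2, 17.2 and 12.4 CPM in WT-labelled libraries 1 to 4. They overlapped as well, with KO-labelled library 4 the lowest of all libraries, and the log2 fold change was 0.29 ± 0.30 (SE, edgeR adjusted p = 0.934).

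Ywhag footprints were 672, 743, 663 and 584 CPM in KO-labelled libraries 1 to 4, against 670.1, 734, 869 and 730.4 CPM in WT-labelled libraries 1 to 4. KO-labelled library 4 was lowest and WT-labelled library 3 highest, and the log2 fold change was −0.17 ± 0.18 (SE, edgeR adjusted p = 0.934). Mdh2 averaged 214 ± 19.1 CPM in KO-labelled and 220.1 ± 14.7 CPM in WT-labelled libraries (SD, n = 4 each), Gtf2i 148 ± 31.4 CPM in KO-labelled and 158 ± 34.6 CPM in WT-labelled libraries, and Por 74.5 ± 14.0 CPM in KO-labelled and 67.4 ± 10.2 CPM in WT-labelled libraries. The 20 members tested in both kinds had the same sign in mRNA and footprints in 12 cases.

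The last comparison set the footprints of each gene against its mRNA. None of the 29 tested members passed the interaction of label and library kind in edgeR, against 0% of all 9673 genes. At an unadjusted p under 0.05 there were 3 members, 1 higher and 2 lower under the KO label, or 10.3% of those tested, beside 10.8% of all genes. The median log2 change was −0.05 in the members and 0.00 over all genes, and the range was −0.92 to 1.19. DESeq2 called 1 of the 29 members, Stx1a, and 144 of the 9673 genes, or 1.49%.

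The footprint CPM of Stx1a per mRNA CPM was 0.374, 0.510, 0.452 and 0.534 in KO-labelled libraries 1 to 4, against 0.908, 1.18, 0.659 and 0.795 in WT-labelled libraries 1 to 4. Every KO-labelled ratio was below every WT-labelled one, and WT-labelled library 2, low in Stx1a mRNA, had the highest ratio. The log2 change in translational efficiency was −0.85 ± 0.21 (SE, 95% interval −1.28 to −0.42), with the lowest p-value of the members (unadjusted p = 0.000453, edgeR adjusted p = 0.169). DESeq2 gave −0.84 with an adjusted p of 0.0269. Without WT-labelled libraries 1 and 2 the change was −0.62 (edgeR adjusted p = 0.466). The fitted translational efficiency of 2 of 5 neuronal and 3 of 4 cortical marker genes was also lower under the KO label. These counts are at an unadjusted p under 0.05, which 10.8% of all genes reached in either direction. At that p, 0 of 5 astrocyte, 0 of 8 myelin and 0 of 6 microglia markers were lower. None of these marker genes was called by edgeR, and their part in the Stx1a values was not tested. The 5 hypothalamus markers all had a higher fitted translational efficiency at an unadjusted p under 0.05, with a median log2 change of 6.22 and none called. That difference in content between the mRNA and footprint libraries stands beside every ratio given here, and its part in them was not tested. Of the 32 partner genes, 29 were tested for translational efficiency, with none called, 4 lower and none higher at an unadjusted p under 0.05, beside 10.8% of all genes in either direction, and a median log2 change of −0.12.

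For Bud23 the ratio was 0.418, 0.686, 0.758 and 0.249 in KO-labelled libraries 1 to 4, against 0.8289, 0.822, 1.39 and 1.01 in WT-labelled libraries 1 to 4. The groups did not overlap, and the log2 change was −0.92 ± 0.34 (SE, 95% interval −1.62 to −0.23, edgeR adjusted p = 0.344). Stx1a and Bud23 lie next to each other on the chromosome and were the 2 of 29 tested members whose ratios did not overlap. Over all genes tested, 2.74% had ratios wholly below and 1.80% wholly above under the KO label.

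Fzd9 had the largest positive change of the 29 tested members. Its ratio was 1.31, 0.564, 0.281 and 0.690 in KO-labelled libraries 1 to 4, against 0.269, 0.138, 0.475 and 0.439 in WT-labelled libraries 1 to 4. KO-labelled library 1 stood highest and KO-labelled library 3 lay within the WT-labelled range. The log2 change was 1.19 ± 0.57 (SE, 95% interval 0.01 to 2.38, edgeR adjusted p = 0.459), on 43 footprint counts over all libraries. Prkrip1, with −0.73 ± 0.46, and Rfc2, with 0.40 ± 0.26, completed the 5 lowest p-values (SE, edgeR adjusted p = 0.588 and 0.592).

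**Figure D5:**
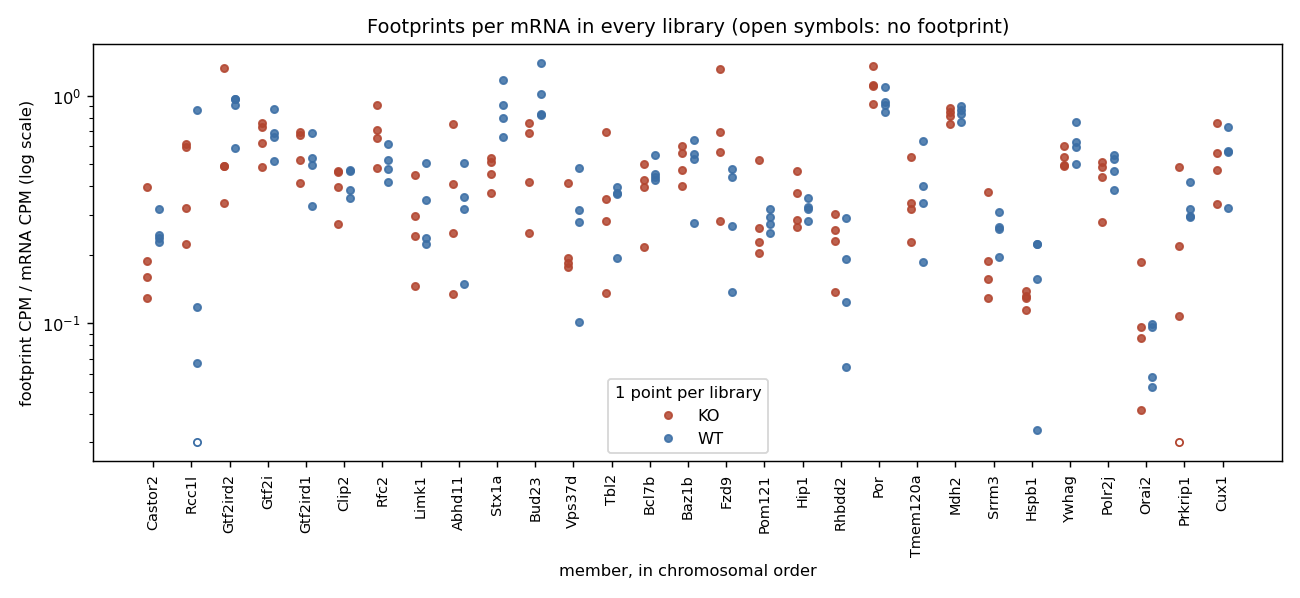
Footprint CPM over mRNA CPM (log scale) in each library for the 29 members tested for translational efficiency, in chromosomal order, with KO-labelled points left of WT-labelled ones. Stx1a and Bud23 are the members whose KO-labelled and WT-labelled points separate, while Orai2 lies low and Por high under both labels.

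The members differed widely from one another in footprints per mRNA under both labels. Over 9454 protein-coding genes with a mean of at least 1 RPKM in both kinds, the median ratio was 0.472 and the quartiles ran from 0.312 to 0.690. Genes with fewer footprints than that are left out, so the quartiles and percentiles cover only genes past both filters. The ratio takes no account of how much of each mRNA is coding sequence. A rank between genes is therefore not a measure of translation alone. Por stood near the top, at 1.12 in KO-labelled and 0.945 in WT-labelled libraries, percentile 92.7 of these genes, and Mdh2 at 0.825 in KO-labelled and 0.839 in WT-labelled libraries, percentile 84.9. Bud23 and Gtf2ird2 were at percentiles 80.6 and 80.1. At the bottom, Orai2 had 0.103 in KO-labelled and 0.0771 in WT-labelled libraries, percentile 1.5, followed by Hspb1 at percentile 4.42 and Rhbdd2 at percentile 9.55. Hspb1, also below the footprint filter, rests on 20 footprint counts over all libraries.

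Orai2 thus had many mRNA counts and few footprints, with 11557 mRNA counts and 109 footprint counts over the 8 libraries of each kind. Its ratio was low in every library, 0.0417, 0.0966, 0.0859 and 0.186 in KO-labelled libraries 1 to 4 and 0.0580, 0.0528, 0.0966 and 0.0992 in WT-labelled libraries 1 to 4. Dnajc30, like Orai2 below the footprint filter, had a similar profile, with 3183 mRNA counts and 23 footprint counts. Its reads could be shared with Bud23, which it overlaps.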

How the data were processed

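Footprint and mRNA libraries of 4 KO-labelled and 4 WT-labelled samples were compared. The deposited table holds raw counts per gene, and the authors' RPKM values, deposited separately, served for filters and for alternatives. TopHat2 and mm10 are named in the submitters' processing notes with no version and no stated role. The program that counted reads, its use of strand and the annotation are not given in the sources used here. The mRNA columns carry the footprint samples' names and were assigned by them. Totals were 15.6 to 17.8 M (mega) counts in mRNA and 0.586 to 3.49 M in footprints.

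Counts were fitted over all genes with edgeR 4.0.16 (R 4.3.3), using TMM scaling and its quasi-likelihood test, with Benjamini-Hochberg adjustment over all genes and a threshold of 0.05. Genes entered the mRNA test at a mean of 1 RPKM or more, the translational efficiency test at that mean in mRNA and in footprints, and the footprint test when kept by filterByExpr (minimum count 10). Translational efficiency is the interaction of label and library kind. That fit has no term for the sample, so footprint and mRNA libraries of the same name enter it as unmatched. Fold changes are KO-labelled over WT-labelled. Alternatives used DESeq2 1.42.0, limma 3.58.1 on log2 of the deposited RPKM plus 0.1 or 1, other scalings and filters, and left-out libraries. The fitting code was tested on simulated data. Values in every library are given for the 5 members with the lowest p in each comparison, the 2 measured members nearest to Nsun5 on each side, and members of the role lists. The members, the lists and the removal of WT-labelled libraries 1 and 2 were chosen with earlier results of these data known.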

Additional observations from a re-analysis of the deposited data

Results flagged for a closer look

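Of 114 groups of 4 libraries examined over the tested members, 5 held 1 library that stood apart from the other 3. Chance alone sets a library apart in about 1 in 20 such groups. Rfc2 mRNA was 24.4 CPM in KO-labelled library 4, against 27.6 to 27.7 CPM in the other KO-labelled libraries. Tbl2 mRNA was 28.4 CPM in WT-labelled library 3 and 32.2 to 32.8 CPM in the other WT-labelled libraries. Castor2 footprints were 49.8 CPM in WT-labelled library 3 and 34.1 to 35.7 CPM in the others of that label. Gtf2ird2 footprints were 23.6 CPM in KO-labelled library 4, against 5.77 to 8.55 CPM in the other KO-labelled libraries. Srrm3 footprints were 16.4 CPM in KO-labelled library 2 and 6.11 to 7.69 CPM in the others of that label.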

How the results depend on the processing

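No member was called under 18 alternatives in mRNA and 17 in footprints, and in translational efficiency DESeq2 alone of 16 alternatives called 1 member, Stx1a (−0.84, adjusted p = 0.0269). Over the alternatives the adjusted p of Stx1a in translational efficiency ran from 0.0269 to 0.672. The members' median log2 fold change in mRNA was −0.024 without WT-labelled libraries 1 and 2, and −0.020 to 0.044 with 1 library left out at a time. In footprints it was −0.15 with total counts in place of TMM, where the median of all genes was also −0.15, −0.038 with the replicate number as a block, and −0.062 to 0.076 with 1 library left out. With no filter on low counts the footprint median of all genes was −0.11. In translational efficiency the members' median was 0.053 without WT-labelled libraries 1 and 2, and −0.060 to 0.072 with 1 library left out. Hip1 mRNA turned positive without WT-labelled library 2 (0.016) and without KO-labelled library 1 (0.0088), with a range of −0.081 to 0.016 over libraries left out. The cause of these shifts was not tested. The count of calls over all genes in mRNA was 87 with DESeq2, 24 with no filter and 2 without KO-labelled library 4. In footprints it was 4 with DESeq2, 3 with total counts, 3 with protein-coding genes only and 86 with no filter. In translational efficiency it was 144 with DESeq2 and at most 4 elsewhere. The replicate numbers showed no sign of pairing: same-number deviations correlated at −0.28 to 0.03 in mRNA and −0.24 to 0.07 in footprints. The replicate block left the calls of members at 0 in each comparison. Footprint depth, 0.586 M (mega) counts at the lowest, of which 39.7% fell in protein-coding genes, limits what could be detected there.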
